A study of Mus musculus with 12 samples.

Results

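The genes described here are those by which brain tissue clears glutamate and turns it into glutamine. They are Slc1a1, Slc1a2, Slc1a3 and Slc1a4, carriers of the SLC1 family, and Glul, the gene of glutamine synthetase. They were taken by name from 46517 Ensembl genes, all 5 were found, and all 5 passed the filter on low counts in every comparison. The members were chosen by measured values of these libraries: the family was proposed because Slc1a2 had the smallest unadjusted p of 13333 genes between DN and CTRL outputs. That contrast, and the interaction that contains it, are therefore given below as values with no test. The lower level of the glial members in outputs was also known beforehand, so the tests of output against input give its size and error and are not independent support.

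The libraries came from the ventromedial nucleus (VMN) of the mouse hypothalamus, dissected from animals on regular chow after an overnight fast. Ribosomes of SF1 cells, the neurons of the VMN named after the protein that Nr5a1 encodes, were pulled down through a GFP-tagged ribosomal protein L10 delivered by an adeno-associated virus (AAV). The output library holds RNA of that pull-down and the input library RNA of the dissected tissue. The groups were DN output, CTRL output, DN input and CTRL input, with 3 libraries each, from 6 pools of 6 animals. DN animals had received an AAV for a dominant-negative AMPK, the kinase that responds to low cellular energy, beside the AAV for the tagged ribosomal protein. CTRL animals had the tagged protein, and their characteristics say that they lacked the DN mutant. Their treatment text nevertheless names the DN virus, and the characteristics were followed. Not given in the sources used here were strain, age, sex, the promoter of either virus and any control virus. The mutant itself and the added virus therefore cannot be told apart in any contrast of DN with CTRL.

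Glutamate released at synapses is not broken down outside cells but is carried back into them with sodium. Astrocytes take up most of it, through GLT1, the product of Slc1a2, and GLAST, the product of Slc1a3. Glutamine synthetase then makes glutamine in astrocytes, and neurons take the glutamine up to remake glutamate. Slc1a1 encodes EAAC1, the carrier found mainly on neurons. Slc1a4 encodes ASCT1, an exchanger of small neutral amino acids such as serine and alanine, which belongs to the same family by sequence.

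Total gene counts were 34.6 to 55.5 M per library. The mitochondrial chromosome took 17.9% to 26.1% of them in outputs and 74.9% to 79.7% in inputs, which left 26.2 to 32.1 M nuclear counts in outputs and 8.54 to 11.3 M in inputs. The members had 393 to 98230 counts per library, so that library-to-library spread and not counting limited their precision. As a check of the pull-down, Nr5a1 had 22.4 ± 10.4 CPM in DN outputs and 6.03 ± 1.15 in DN inputs, and 22.7 ± 12.2 CPM in CTRL outputs and 2.07 ± 0.846 in CTRL inputs (SD, n = 3). Levels are CPM scaled with TMM factors throughout. The endogenous catalytic subunits of AMPK do not check the DN label, since the labels do not say which subunit the virus encodes.

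On GRCm38, Slc1a2 (ENSMUSG00000005089) lies on chromosome 2 from 102658659 to 102790784 on the plus strand, and Slc1a3 (ENSMUSG00000005360) on chromosome 15 from 8634124 to 8710764 on the minus strand. Glul (ENSMUSG00000026473) lies on chromosome 1 from 153899944 to 153909723 on the plus strand. Slc1a4 (ENSMUSG00000020142) lies on chromosome 11 from 20302180 to 20332713 on the minus strand, and Slc1a1 (ENSMUSG00000024935) on chromosome 19 from 28835049 to 28913960 on the plus strand. All 5 are annotated as protein coding. The exons of Slc1a1 share 2631 bp with 4430402I18Rik on the other strand, a gene that had 1637 counts over the 12 libraries. Since the strand setting of the counting is not given, reads of that stretch cannot be assigned, and the value of Slc1a1 carries this limit throughout.

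In the dissected tissue, Slc1a2 had rank 13 of all genes by mean CPM in DN inputs and rank 10 in CTRL inputs. That rank is not scaled to length, and Slc1a2 has the longest merged exons of the members, 13133 bp. Per kb of merged exons it averaged 171 ± 11.6 CPM in DN inputs and 190 ± 25.3 in CTRL inputs (SD, n = 3). On the same per-length scale Glul followed with 92.0 ± 7.57 CPM per kb in DN inputs and 76.7 ± 4.26 in CTRL inputs. Slc1a3 came next with 23.1 ± 2.93 in DN inputs and 23.5 ± 3.33 in CTRL inputs. The lowest levels per kb were those of Slc1a1, at 7.48 ± 1.995 and 7.87 ± 0.870, and of Slc1a4, at 7.01 ± 2.83 and 6.09 ± 1.52, in DN inputs and CTRL inputs. These lowest genes overlapped within their spread, and the 3 glial members stood in the same order in all 6 inputs.

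In outputs the order per length changed below the first place. Slc1a2 remained highest in all 6 outputs, with 69.7 ± 4.66 CPM per kb in DN and 108 ± 8.13 in CTRL, and Glul remained second with 24.5 ± 4.04 and 34.9 ± 8.23. Slc1a1 held place 3 in all 6 outputs, with 11.5 ± 1.84 in DN outputs and 11.4 ± 3.28 in CTRL outputs. Slc1a3, at 4.30 ± 1.23 and 3.96 ± 0.703, and Slc1a4, at 3.40 ± 1.67 and 5.38 ± 0.677, overlapped at the low end. With the longest transcript as the length, the same genes held the first 3 places in every library.

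Among the 4 carriers, Slc1a2 made up 77.1% to 79.7% of the summed level per length in DN outputs and 82.8% to 86.0% in CTRL outputs, against 80.4% to 83.3% in DN inputs and 82.0% to 84.5% in CTRL inputs. Slc1a1 took 10.4% to 16.1% in DN outputs and 6.48% to 10.4% in CTRL outputs, but 2.43% to 4.62% in DN inputs and 2.84% to 4.11% in CTRL inputs. Slc1a3 took 3.58% to 5.93% in DN outputs and 2.58% to 3.40% in CTRL outputs, but 10.04% to 12.4% in DN inputs and 10.1% to 10.7% in CTRL inputs. In outputs the share of Slc1a3 was thus lower and that of Slc1a1 higher than in inputs, in both conditions. Each share depends on all 4 carriers, so a higher share of Slc1a1 does not by itself mean a higher level. With the longest transcript as the length, Slc1a1 had larger shares in every group, 21.7% in DN outputs and 15.3% in CTRL outputs on average, because its longest transcript is much shorter than its merged exons.

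**Figure D1:**
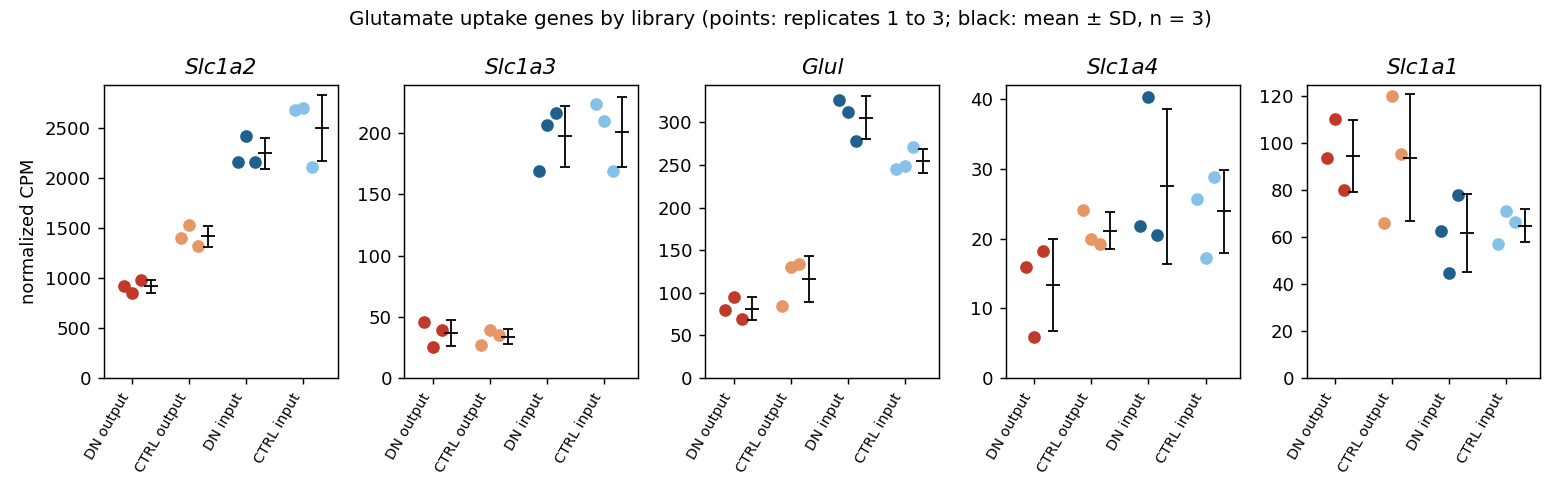
Normalized CPM of the 5 genes in each of the 12 libraries, with DN output, CTRL output, DN input and CTRL input from left to right and the mean ± SD of 3 libraries in black. Slc1a2, Slc1a3 and Glul were lower in every output than in every input of the same condition, whereas Slc1a1 was not.

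The first comparison asked which members the pull-down depleted or kept. In DN pools, Slc1a2, Slc1a3 and Glul fell in outputs, while Slc1a1 and Slc1a4 did not pass the test. The fall was 5.42-fold for Slc1a3, 3.78-fold for Glul and 2.47-fold for Slc1a2. By edgeR's quasi-likelihood test 3 of the 5 members were called lower, where 1.54% of 13041 genes were (3.38% in either direction, 8.62% by DESeq2 and 3.04% by limma-voom), and 4 of 5 were lower in every output than in every input, where 10.9% of genes were. This is a difference between pull-down and tissue RNA, and gives neither the share of astrocytes in the tissue nor their RNA content.

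GLT1's gene Slc1a2 had 918, 852 and 974.7 CPM in DN outputs, against 2157, 2420 and 2154 CPM in DN inputs. The 2 sets of libraries were far apart, and the log2 fold change was -1.30 ± 0.10 (SE, edgeR adjusted p = 1.68e-05). Without any 1 DN pool it stayed between -1.39 and -1.20. The GLAST gene Slc1a3 had 45.9, 25.3 and 38.9 CPM in DN outputs, against 169, 207 and 216 CPM in DN inputs (log2 fold change -2.44 ± 0.25, edgeR adjusted p = 2.29e-04). Glul, whose enzyme uses the glutamate these carriers bring in, had 80.0, 95.7 and 69.0 CPM in DN outputs, against 327, 312 and 278 CPM in DN inputs (-1.92 ± 0.18, edgeR adjusted p = 1.30e-04). All 3 calls held under each of the 12 alternatives tried, with adjusted p of at most 0.0163.

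Slc1a4 had 16.0, 5.86 and 18.2 CPM in DN outputs, against 21.8, 40.3 and 20.5 CPM in DN inputs. Every output lay below every input, but pool 2 was both the lowest output and the highest input. The log2 fold change was -1.05 ± 0.52 (95% interval -2.18 to 0.07, edgeR adjusted p = 0.36), and without pool 2 it was -0.31. Slc1a1 had 93.6, 110 and 79.9 CPM in DN outputs, against 62.6, 44.9 and 77.8 CPM in DN inputs. The outputs were all higher, where 11.6% of all genes tested were, and only narrowly so in pool 3. The log2 fold change of 0.60 ± 0.26 did not pass (95% interval 0.04 to 1.17, edgeR adjusted p = 0.279). It was 0.30 without DN pool 2 and 0.91 without DN pool 3.

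The same question in CTRL pools gave the same 3 calls. Slc1a3 fell 5.98-fold in CTRL outputs, Glul 2.21-fold and Slc1a2 1.78-fold. Again 3 of 5 members were called lower by edgeR, where 1.42% of 13456 genes were (3.2% in either direction, 8.71% by DESeq2 and 3.14% by limma-voom), and the same 3 were lower in every output than in every input, where 11.2% of genes were. In CTRL the calls of Slc1a2 and Glul were lost without pool 1 or without pool 2, as given beside their values. Without pool 3 they still passed by edgeR (adjusted p = 0.0141 for Slc1a2 and 0.0373 for Glul).

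Slc1a2 had 1393, 1529 and 1319 CPM in CTRL outputs, against 2680, 2692 and 2110 CPM in CTRL inputs. The groups did not overlap, and the log2 fold change was -0.83 ± 0.12 (edgeR adjusted p = 0.00538). It no longer passed without CTRL pool 1 (-0.76, adjusted p = 0.114) or pool 2 (-0.82, adjusted p = 0.133), although its size hardly changed. Its adjusted p lay between 3.86e-07 and 0.133 in the alternatives. Slc1a3 had 27.2, 39.0 and 35.1 CPM in CTRL outputs, against 224, 210 and 169 CPM in CTRL inputs (-2.58 ± 0.20, edgeR adjusted p = 3.81e-05), and passed under each of the 12 alternatives.

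Glul had 84.6, 130 and 134 CPM in CTRL outputs, against 245, 249 and 271 CPM in CTRL inputs. The groups were apart, with CTRL output 1 the lowest, and the log2 fold change was -1.15 ± 0.19 (edgeR adjusted p = 0.00972). Without CTRL pool 1 or pool 2 it was -0.99 (adjusted p = 0.0967) or -1.24 (adjusted p = 0.133), and its adjusted p lay between 5.32e-07 and 0.133 in the alternatives.

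Slc1a4 had 24.1, 19.99 and 19.2 CPM in CTRL outputs, against 25.7, 17.3 and 28.8 CPM in CTRL inputs, and the groups overlapped. Its log2 fold change was -0.19 ± 0.32 (95% interval -0.90 to 0.51, edgeR adjusted p = 0.833). Slc1a1 had 66.0, 120 and 95.4 CPM in CTRL outputs, against 57.1, 71.2 and 66.5 CPM in CTRL inputs, where CTRL output 1 overlapped with the inputs. Its log2 fold change was 0.52 ± 0.23 (95% interval 0.01 to 1.03, edgeR adjusted p = 0.294). A higher level of this neuronal carrier in outputs was thus not established in either condition.

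Within pools, the log2 ratio of output to input put the members in nearly the same order each time. Slc1a3 ranged from -2.99 to -1.86 over the 6 pools, Glul from -2.02 to -0.93 and Slc1a2 from -1.50 to -0.68. Slc1a3 was more depleted than Slc1a2 in 6 of 6 pools, by 0.63 to 2.05 log2 units, and more depleted than Glul in 5 of 6. Glul was more depleted than Slc1a2 in 6 of 6 pools, by 0.12 to 0.85 log2 units. Slc1a4 ranged from -2.59 to 0.20, and Slc1a1 from 0.04 to 1.28, above the other 4 members in all 6 pools. This order was read from the same values, and no test of it was run. Scaling to nuclear counts with no further factor lowered the median of all genes by 0.08 to 0.18 in a pool, and Slc1a1 was then at -0.11 in DN pool 3 and positive in the other 5 pools.

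**Figure D2:**
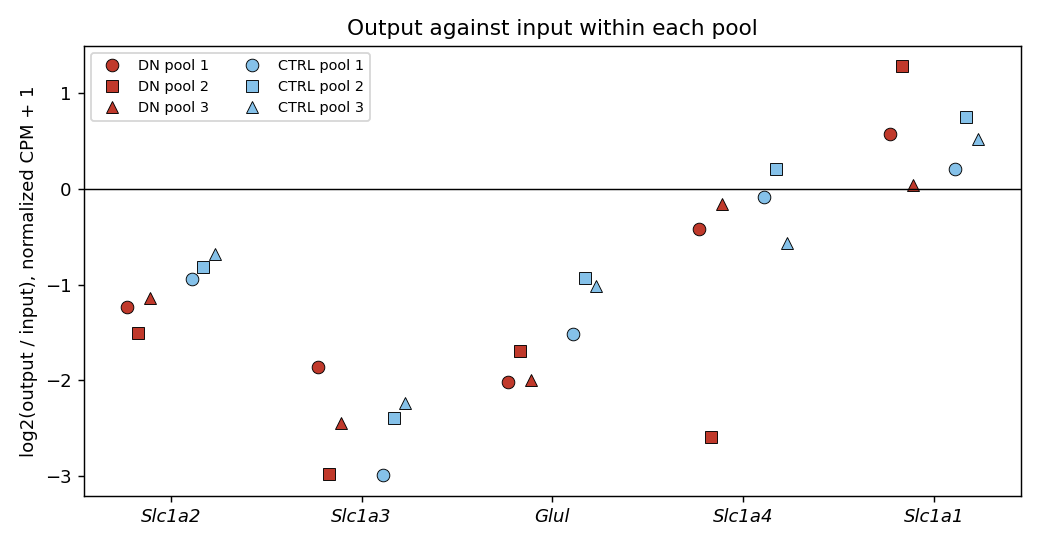
Log2 ratio of output to input (normalized CPM + 1) within each of the 6 pools, DN pools left of CTRL pools for each gene. Slc1a3, Glul and Slc1a2 were below 0 in 6 of 6 pools, Slc1a1 was above 0 in 6 of 6, and the lowest Slc1a4 value, -2.59, belongs to DN pool 2.

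The glial members were set beside a list of 19 other astrocyte markers, which includes none of the 5 genes. In DN outputs 12 of 18 tested markers were lower by edgeR, 0 were higher and 6 did not pass, with a median log2 fold change of -2.27, against 0.00 over all genes. In CTRL outputs 11 of 19 were lower, 0 were higher and 8 did not pass, with a median of -1.88, against 0.02 over all genes. The summed level of the list was 648 to 719 CPM in DN outputs and 2293 to 2309 in DN inputs, and 667 to 770 CPM in CTRL outputs and 2120 to 2443 in CTRL inputs. No marker was at 0 in all libraries of any group.

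Among the most abundant of these markers, Atp1b2, Slc4a4 and Aqp4 fell in both conditions. Atp1b2, a subunit of the sodium pump, was at -1.25 ± 0.13 in DN outputs on the log2 scale and at -1.21 ± 0.15 in CTRL outputs. Slc4a4, a sodium bicarbonate cotransporter, was at -1.51 ± 0.18 in DN and -1.42 ± 0.16 in CTRL. Aqp4, the water channel of astrocyte endfeet, was at -1.54 ± 0.19 in DN and -1.20 ± 0.22 in CTRL. Their edgeR adjusted p values were 0.0138 or lower.

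Slc1a2 sat near the upper end of this range. Of the 18 tested markers in DN, 16 were more depleted than Slc1a2, and in CTRL 18 of 19 were. Slc1a3 lay within the range, with 8 of 18 markers in DN and 5 of 19 in CTRL more depleted than it. Glul was between, with 13 of 18 and 18 of 19. Accordingly Slc1a2 had 1.25 to 1.51 times the CPM of the whole marker list in DN outputs and 1.98 to 2.06 times in CTRL outputs, against 0.934 to 1.06 times in DN inputs and 0.996 to 1.25 times in CTRL inputs. These CPM are not scaled to length, so the ratios compare libraries and not the abundance of Slc1a2 with that of the list. The ratio of Slc1a2 to Slc1a3 per length was 13.0 to 21.9 in DN outputs and 24.4 to 33.3 in CTRL outputs, against 6.47 to 8.29 in DN inputs and 7.79 to 8.35 in CTRL inputs.

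**Figure D3:**
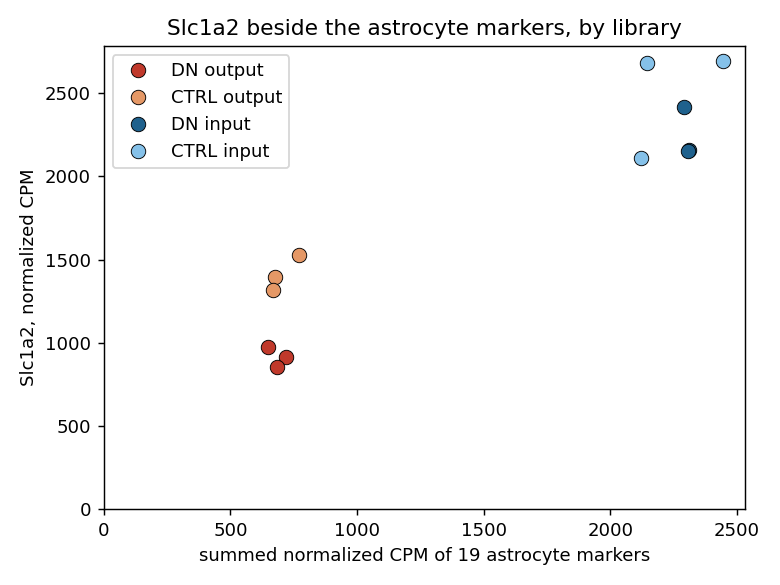
Slc1a2 (normalized CPM, vertical) against the summed normalized CPM of 19 other astrocyte markers (horizontal) in each of the 12 libraries. The marker sum was 648 to 719 CPM in DN outputs and 667 to 770 CPM in CTRL outputs, while Slc1a2 was at 852 to 974.7 CPM in DN outputs and 1319 to 1529 CPM in CTRL outputs.

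Markers of oligodendrocytes fell in outputs too. Of 10 oligodendrocyte markers 7 were called lower in DN outputs (median -2.23) and 7 in CTRL outputs (median -2.02), and oligodendrocytes too contain glutamine synthetase. Their summed level was 238 to 328 CPM in DN outputs and 1141 to 1317 in DN inputs, and 261 to 403 CPM in CTRL outputs and 1069 to 1338 in CTRL inputs. Tanycytes, which like astrocytes contain GLAST, shared a list with ependymal cells. It summed to 0.560 to 8.45 CPM in DN outputs and 10.6 to 23.7 in DN inputs, and 3.08 to 8.76 CPM in CTRL outputs and 13.2 to 22.8 in CTRL inputs. Rax and Tmem212 were at 0 in all outputs, but Rax averaged only 0.080 CPM in DN inputs and 0.106 in CTRL inputs. Of the 4 genes of the list tested in DN, 3 were lower in outputs. The other, Crym, was higher, at 1.89 CPM in DN outputs and 0.556 in DN inputs on average. All 3 tested in CTRL were lower in outputs. By edgeR 1 of the 4 was called lower in DN and 0 of 3 in CTRL, where 2 of the 3 had an unadjusted p below 0.05. How much each cell type contributes to Slc1a3 or Glul was not tested. In the opposite direction, 6 of 7 VMN neuron markers were called higher in outputs in each condition, with medians of 1.67 in DN and 1.44 in CTRL, where 1.84% of all genes were called higher in DN and 1.78% in CTRL.

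**Figure D4:**
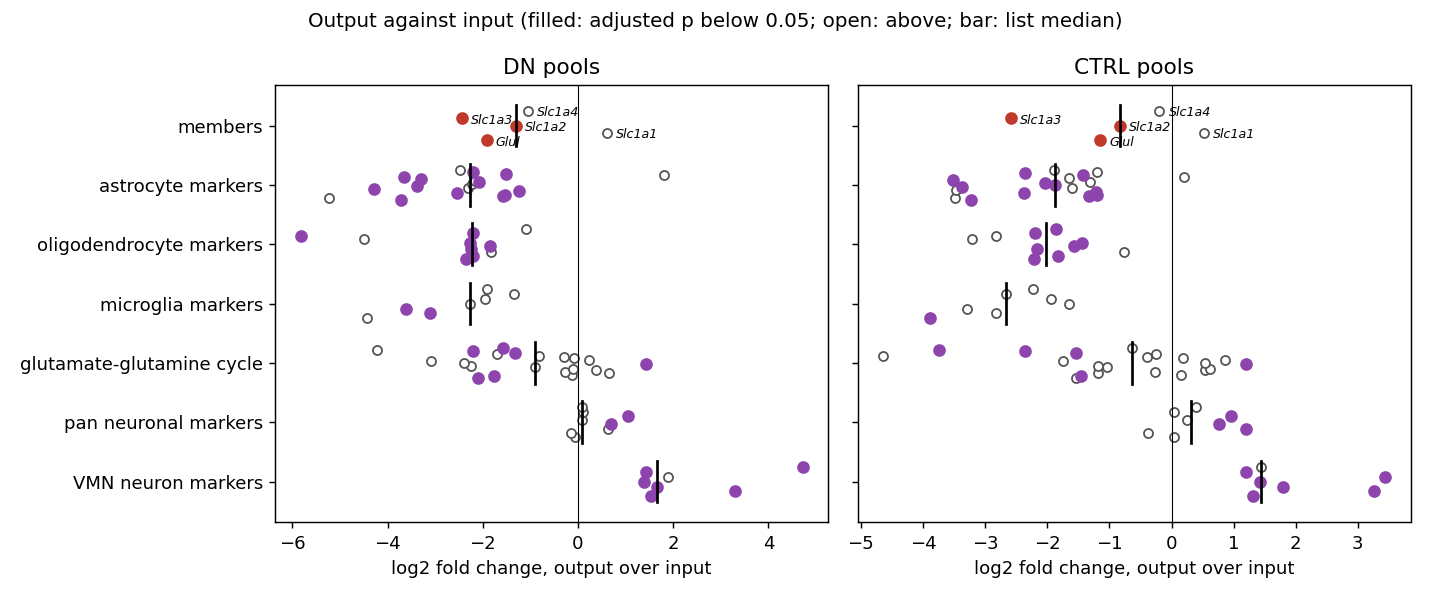
Log2 fold change of output over input for the 5 members and for the genes of 6 marker or pathway lists, DN pools on the left and CTRL pools on the right, with filled points for an edgeR adjusted p below 0.05 and a bar at each list's median; each panel has its own horizontal scale. Slc1a3 lies within the range of the astrocyte markers in both panels, and Slc1a1, which did not pass, lies below every VMN neuron marker.

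The rest of the glutamate and glutamine cycle was described from a list of 23 genes, of which 21 were tested. In DN outputs 1 was called higher, 5 lower and 15 did not pass, with a median log2 fold change of -0.89. In CTRL outputs 1 was higher, 4 were lower and 16 did not pass, with a median of -0.63. The higher gene was Slc17a6, the vesicular glutamate transporter of VMN neurons, at 1.43 ± 0.17 in DN and 1.20 ± 0.14 in CTRL. Gad2, which makes GABA from glutamate in GABA neurons, was among the lower ones, at -1.76 ± 0.14 in DN and -1.46 ± 0.15 in CTRL. Glud1, glutamate dehydrogenase, did not pass, at -0.28 ± 0.14 (95% interval -0.60 to 0.03) and -0.27 ± 0.17 (-0.64 to 0.11). Slc38a1, a glutamine carrier of neurons, did not pass either, at -0.08 ± 0.18 (-0.48 to 0.33) in DN and 0.19 ± 0.21 (-0.26 to 0.64) in CTRL.

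Among 9 genes whose products bind these carriers or work beside them in astrocyte membranes, 8 were tested and 4 were called lower in each condition, none higher. Aqp4 and Gja1 are on the astrocyte list too. Kcnj10, the potassium channel that keeps the astrocyte membrane negative and so drives uptake, was at -1.23 ± 0.18 in DN outputs (edgeR adjusted p = 0.00244) and at -0.68 ± 0.22 in CTRL outputs (adjusted p = 0.137). Gja1, a gap junction protein, was at -2.23 ± 0.56 in DN (adjusted p = 0.0501) and -1.88 ± 0.33 in CTRL (adjusted p = 0.0114). These differences in calls between conditions were not themselves past the test, since the interaction called 0 of 15011 genes. The remaining SLC1 genes were near absence in this tissue. Slc1a6, the carrier of cerebellar Purkinje cells, averaged at most 2.59 CPM in any group and Slc1a5, the exchanger ASCT2, at most 0.929 CPM. Slc1a7 had no count in any library.

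The second comparison asked how the members differed between DN and CTRL in whole tissue. In inputs none of the 5 members passed between DN and CTRL. By edgeR 1 of 13221 genes was called (0.00756%), while 589 had an unadjusted p below 0.05 (4.46%), none of them a member, and DESeq2 called 2 (0.0151%) and limma-voom 8 (0.0605%). The adjusted p of the members was at least 0.709 in every alternative. In tissue RNA, a change in the share of astrocytes and a change in RNA per astrocyte cannot be told apart.

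Slc1a2 differed by -0.15 ± 0.11 between DN and CTRL inputs on the log2 scale (95% interval -0.40 to 0.10), and the 2 groups overlapped through CTRL input 3. It was -0.26 without CTRL input 3, -0.09 without CTRL input 1 and -0.10 without CTRL input 2. Slc1a3 was at -0.02 ± 0.17 (-0.40 to 0.36), Slc1a4 at 0.20 ± 0.37 (-0.61 to 1.01) and Slc1a1 at -0.07 ± 0.25 (-0.61 to 0.47), each with overlapping groups. Glul was the 1 member with every DN input above every CTRL input, where 5.17% of genes were, and no member had every DN input below every CTRL input, where 5.37% of genes did. It averaged 306 ± 25.1 CPM in DN inputs and 255 ± 14.2 CPM in CTRL inputs, a log2 difference of 0.26 ± 0.14 (95% interval -0.05 to 0.57) that did not pass (edgeR adjusted p = 0.997). Among the 19 astrocyte markers 11 were positive and 8 negative, with a median of 0.06, against 0.03 over all genes.

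In outputs, the contrast that led to the choice of these genes, Slc1a2 averaged 915 ± 61.1 CPM in DN and 1414 ± 107 CPM in CTRL (SD, n = 3). All DN outputs lay below all CTRL outputs, and the log2 difference was -0.63 ± 0.11 (SE), or 1.55-fold lower in DN. It stayed between -0.68 and -0.57 under each of 15 alternatives, single libraries left out among them. By edgeR 0 of 13333 genes were called in this contrast (0%), 721 had an unadjusted p below 0.05 (5.41%), DESeq2 called 58 (0.435%) and limma-voom called 1 (0.0075%). Since the gene was picked for this value, no test of it is given, and its size can be overstated by the choice. The alternatives refit the same libraries and are not independent support.

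The other members did not share 1 direction. Glul averaged 81.5 ± 13.4 CPM in DN outputs and 116 ± 27.4 CPM in CTRL outputs, a log2 difference of -0.51 ± 0.23, with CTRL output 1 below DN output 2. Slc1a4 averaged 13.3 ± 6.57 CPM in DN outputs and 21.1 ± 2.66 CPM in CTRL outputs, a log2 difference of -0.66 ± 0.48 with all DN outputs lower, but it was -0.30 without DN output 2. Slc1a3 averaged 36.7 ± 10.5 CPM in DN outputs and 33.8 ± 6.005 CPM in CTRL outputs, at 0.12 ± 0.32. Slc1a1 averaged 94.6 ± 15.2 CPM in DN outputs and 93.9 ± 27.1 CPM in CTRL outputs, at 0.01 ± 0.24, and both had overlapping groups. Slc1a2 and Slc1a4 were the members lower in every DN output. Over all genes 5.87% were, and nothing is read from this share, since the contrast was used to choose the members.

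The astrocyte markers were set beside the members in this contrast too. Of 17 astrocyte markers tested in outputs, 12 were negative and 5 positive between DN and CTRL, with a median of -0.21, against 0.01 over all genes, and 1 was lower and 1 higher in every DN output. Slc1a2 was more negative than 15 of the 17, but nothing is read from this rank, since the gene was picked by this contrast. The abundant marker Atp1b2 averaged 248 ± 6.81 CPM in DN outputs and 207 ± 28.6 CPM in CTRL outputs (0.26 ± 0.16). Slc4a4 averaged 131 ± 23.1 CPM in DN outputs and 151 ± 23.8 CPM in CTRL outputs (-0.21 ± 0.20). Aqp4 averaged 84.6 ± 11.02 CPM in DN outputs and 86.3 ± 18.1 CPM in CTRL outputs (-0.03 ± 0.22). The summed level of the list, 648 to 719 CPM in DN outputs and 667 to 770 CPM in CTRL outputs, overlapped between the groups. Atp1b2, the most abundant in outputs, ran opposite to most of the list in this sum. The VMN neuron markers summed to 1666 to 2292 CPM in DN outputs and 1369 to 1573 CPM in CTRL outputs, with no overlap, and 6 of 7 were positive. The part of these shifts in the value of Slc1a2 was not tested.

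**Figure D5:**
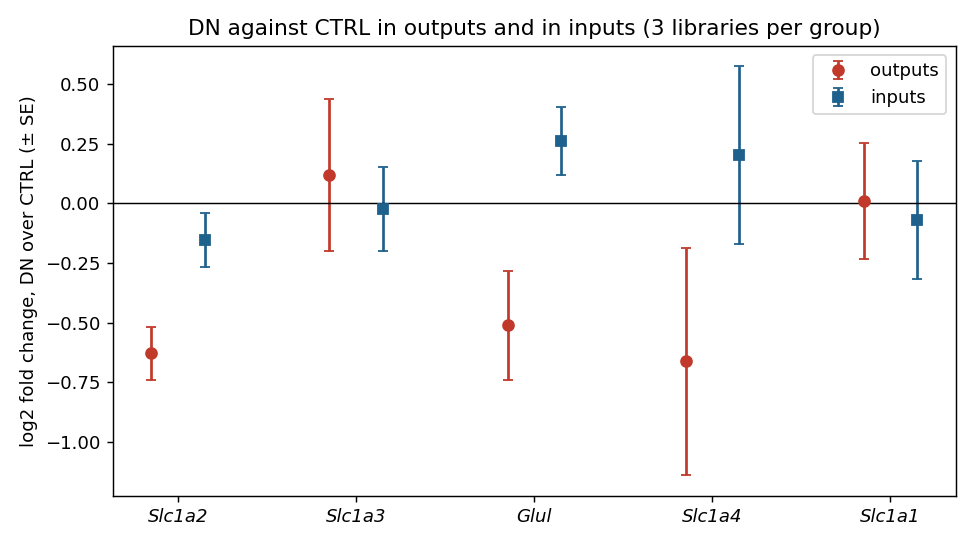
Log2 fold change of DN over CTRL with its SE for each member, in outputs (circles) and in inputs (squares), 3 libraries per group. Slc1a2 was at -0.63 in outputs and -0.15 in inputs, Glul at -0.51 in outputs and 0.26 in inputs, and Slc1a1 and Slc1a3 were near 0 in both.

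The change of depletion between conditions joins these contrasts and shares their output libraries. The log2 ratio of output to input of Slc1a2 was -1.50 to -1.14 in DN pools and -0.94 to -0.68 in CTRL pools. Its fitted difference of the output-input change was -0.48 ± 0.16 on the log2 scale. For Glul the ratio was -2.02 to -1.70 in DN pools and -1.52 to -0.93 in CTRL pools, with a fitted difference of -0.77 ± 0.26. How many of all genes separate the pools in this way was not counted. Nothing is read from it, since the outputs used to choose the members enter these ratios. The Glul difference combines 0.26 in inputs, which did not pass, with -0.51 in outputs, where the groups overlapped. Slc1a3 had -2.98 to -1.86 in DN pools and -2.99 to -2.23 in CTRL pools, with a difference of 0.14 ± 0.32. The difference was -0.86 ± 0.60 for Slc1a4, -0.12 without DN pool 2, and 0.08 ± 0.35 for Slc1a1. By edgeR 0 of 15011 genes were called for this interaction (0%), 933 had an unadjusted p below 0.05 (6.22%), DESeq2 called 99 (0.66%) and limma-voom 0.

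Genes with the most similar pattern over the 12 libraries were listed for each member among 7715 protein-coding genes with a mean of at least 5 CPM. The libraries share 2 fractions that differ strongly, so a high correlation mostly restates the difference of output and input, and the values are a description. Closest to Slc1a2 were Qk, an RNA-binding protein abundant in glia (Pearson r = 0.957), Ntsr2, a neurotensin receptor of astrocytes (0.954), Herc2 (0.953), Chpt1 (0.953) and Gad2 (0.952). Closest to Slc1a3 were Gpm6b, a membrane glycoprotein of glia and neurons (0.983), mt-Cytb (0.978), mt-Nd1 (0.977), Cst3, cystatin C (0.976), and mt-Nd5 (0.975), whose Spearman coefficients were lower, between 0.755 and 0.916. Close to Glul were Slc39a12, a zinc transporter (0.974), Sparc (0.970), Cldn11, a claudin of myelin (0.968), and Sparcl1 (0.961).

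The other members had looser neighbours. Closest to Slc1a1 were Slitrk4, a synaptic adhesion protein (0.912), 1700030J22Rik (0.909), Ndrg3 (0.906), BC052040 (0.905) and Sppl3 (0.903). Close to Slc1a4 were Ldlrad3 (0.868), Ugp2 (0.856), Paqr7 (0.852) and Csf1 (0.849). Among the members themselves, Slc1a2, Slc1a3 and Glul correlated with each other at 0.897 to 0.917, and Slc1a1 was negatively correlated with each of the other 4, at -0.73 to -0.61.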

How the data were processed

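For each library the authors deposited unnormalized read counts by Ensembl gene. The submitters' processing notes name HTSeq 0.6.1, STAR 2.4.2a and cutadapt 1.3, with the build GRCm38, and per the labels' protocols all RNA was linearly amplified (NuGEN Ovation). Not given in the sources used here were annotation release, strand setting and other parameters. The 5 HTSeq classes without a gene (16.1% to 26.1% of all entries) were left out. Symbols, positions and exon lengths came from GENCODE release M21, which held 46005 identifiers (98.9%). All 12 libraries differed from each other.

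Genes were tested two-sided with edgeR 4.0.16 (quasi-likelihood, TMM, filterByExpr with minimum count 10 and total 15) in R 4.3.3, over the 6 libraries concerned or all 12 for the interaction, with Benjamini-Hochberg adjustment over all genes tested and a threshold of 0.05. Levels are CPM with TMM factors over 12 libraries. Pool ratios used CPM + 1. SE is that of the fitted log2 fold change, and intervals are 95% from it. Alternatives included DESeq2 1.42.0 and limma-voom (limma 3.58.1), and fits were tested on simulated data. The labels number pools but do not say how animals were assigned, and p-values measure the spread between these pools.

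Per the labels, output and input of 1 number come from 1 pool. Deviations from group means correlated within a pool at 0.00, 0.00 and 0.02 in DN and 0.10, 0.03 and 0.16 in CTRL. DN and CTRL pools share only a number.

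Members and lists were chosen with earlier results of these data known. Named were the 5 members, the 5 most similar genes of each, up to 4 most abundant genes per list described, and Nr5a1, and some genes that this rule names are not reported here. Rax, Tmem212 and the calls of Kcnj10 and Gja1 set side by side were picked out after their values were seen.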

Additional observations from a re-analysis of the deposited data

How the results depend on the processing

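All 5 members kept their direction in outputs against inputs of DN, and their side of the threshold, under the 12 alternatives tried. In CTRL, calls of Slc1a2 and Glul ended without pool 1 or 2 as given above, and Slc1a4 ranged from -0.33 to 0.038 without 1 pool, positive without CTRL pool 3. Between DN and CTRL inputs, values near 0 changed sign when 1 library was left out: Slc1a1 ranged from -0.27 to 0.11 (positive without DN input 2), Slc1a3 from -0.13 to 0.074 (positive without DN input 1, CTRL input 1 or CTRL input 2) and Slc1a4 from -0.18 to 0.38 (negative without DN input 2). Between DN and CTRL outputs Slc1a1 ranged from -0.19 to 0.23 and Slc1a3 from -0.07 to 0.33. In the interaction, values near 0 also changed sign without 1 pool. Slc1a3 was at -0.15 without DN pool 1 and -0.07 without CTRL pool 1, in a range up to 0.39. Slc1a1 was at -0.22 without DN pool 2 and -0.03 without CTRL pool 1, in a range up to 0.39.

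Counts of called genes depended more on the setting. Output against input in DN called 441 genes, but 1124 by DESeq2, 976 with no filter, 673 in 1 fit of all 12 libraries and 115 to 148 without 1 pool. In CTRL it called 431, but 1172 by DESeq2, 903 with no filter and 45 to 214 without 1 pool. DN against CTRL in outputs called 0, but 58 by DESeq2 and 1 by limma-voom. In inputs it called 1, but 2 by DESeq2, 8 by limma-voom, 39 with no filter, 0 to 8 without 1 library, and 0 with DESeq2 size factors, upper quartile scaling, a mean of at least 5 CPM, no mitochondrial chromosome, a replicate block or 1 fit of all libraries. The interaction called 0, but 99 by DESeq2 and 54 with no filter. With the pool as a replicate block, output against input called 396 genes in DN and 527 in CTRL, and no call of a member changed.

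Scaling to nuclear counts with no TMM factor moved the mean pool ratio of Slc1a2 to -1.48 in DN and -0.97 in CTRL and that of Glul in DN to -2.10. With the longest transcript as the length, Slc1a2 over Slc1a3 was 10.04 in DN outputs, 16.3 in CTRL outputs, 4.39 in DN inputs and 4.76 in CTRL inputs. The carrier share of Slc1a2 was then 68.3%, 76.5%, 74.1% and 75.8%, and that of Slc1a1 21.7%, 15.3%, 6.27% and 6.10%, in that order of groups. Apart from what fewer samples, other genes tested or another length bring by construction, the cause was not tested. Depth did not limit the members, whereas Slc1a5, Slc1a6 and Slc1a7 were too low to compare.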
